A study of Hordeum vulgare with 32 samples.

Results

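Transcript abundance in the main shoot apex of barley (Hordeum vulgare) was compared directly between the introgression lines int-a.1 (stock GSHO 2055) and vrs4.k (stock GSHO 1986), without the recurrent parent Bowman. The comparison used 12 of the 32 libraries of the series, chosen by line alone: 3 int-a.1 and 3 vrs4.k libraries at Waddington stage W3.5 and 3 of each at W5.5, which is 6 per line. The test covered every transcript of the table, 30174 in all. Both lines are in cv. Bowman and received no treatment. Each line is a single stock, and neither its donor segments nor its lesion is given in the sources used here. Nothing in the labels says that the 3 libraries of a group came from separate plants, so the p-values measure the spread between these libraries, which may be technical. The introgression lines vrs1 (stock GSHO 1907) and int-c.5 (stock GSHO 2003), with 6 libraries each at the same stages, served as levels to look up. They entered none of the main fits, only the alternative fit of 24 libraries.

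The barley spike carries triplets of spikelets at each node, a central one flanked by lateral ones. In 2-rowed barley the laterals stay sterile, and a set of row-type loci holds them back. INT-A, also called VRS3, codes for a jumonji C protein of the histone demethylase kind, which acts on chromatin. VRS4 codes for a LOB-domain transcription factor related to RAMOSA2 of maize. Loss of either makes lateral spikelets larger and more often fertile. INT-A lies on chromosome 1 and VRS4 on chromosome 3, so transcripts on those chromosomes were kept apart from the rest. The genome is known here through a map position in the deposited table, whose unit the table does not name.

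Some libraries stood apart. At 9 transcripts that were high in vrs4.k alone, int-a.1 W3.5 replicate 3 held a median of 28.8% of the vrs4.k level (lowest 10.7%, highest 32.8%). At 17 transcripts that were low in the rest of int-a.1 but present in vrs4.k, vrs1 and int-c.5, the same library held a median of 29.9% of the others' level. For the other int-a.1 libraries, each measured at its own set of 9 to 15 such transcripts, that median lay between 0% and 5.5%. In vrs4.k, W5.5 replicate 3 held 13.3% at 9 transcripts low in the rest of its line. Each of the other 5 libraries had a median of 0% at its own set of 8 or 9. A second feature set apart replicate 1 of int-a.1 at both stages. These 2 libraries were at more than 3 times below the lowest of the other 4 int-a.1 libraries at 64 transcripts, and at more than 3 times the highest of them at 20. The other 8 pairs of 1 W3.5 and 1 W5.5 int-a.1 library shared 1 to 8 such low and 0 to 2 such high transcripts, and the 9 vrs4.k pairs 0 to 16 and 0 to 29. The 29 high transcripts, 8 of them on chromosome 1, were those of vrs4.k W3.5 replicate 3 and W5.5 replicate 1. The main counts are therefore given with all 12 libraries, without int-a.1 W3.5 replicate 3, without replicate 1 of int-a.1 at both stages, and without that vrs4.k pair. A fit that leaves out a pair has 10 libraries. Across transcripts, libraries of a group correlated at r = 0.927 to 0.976, 5 of 12 were closest to their own group, and 0 pairs were identical. Every vrs4.k library was closest to the other stage of vrs4.k. A library has fewer others in its own group than in another group, so this measure cannot decide whether the stages of that line separate. int-a.1 W3.5 replicate 1 was closest to vrs4.k W3.5, the other line at the same stage. Markers chosen for the apex were present in all groups. The 8 KNOX transcripts, homeobox factors matched to KNAT1, KNAT3 or KNAT6, summed to 102 to 141 TPM in int-a.1 and 96.3 to 156 TPM in vrs4.k. Only some members of this family maintain shoot meristems. The 24 leaf markers (chlorophyll a/b-binding proteins and the RuBisCO small subunit) summed to 519 to 786 TPM in int-a.1 and 531 to 1080 TPM in vrs4.k, and none of the KNOX, YABBY, floral MADS, leaf or anther markers was called (0 transcripts). TPM, an abundance scaled for transcript length and library total, keeps no depth, so sequencing depth is unknown.

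**Figure D1:**
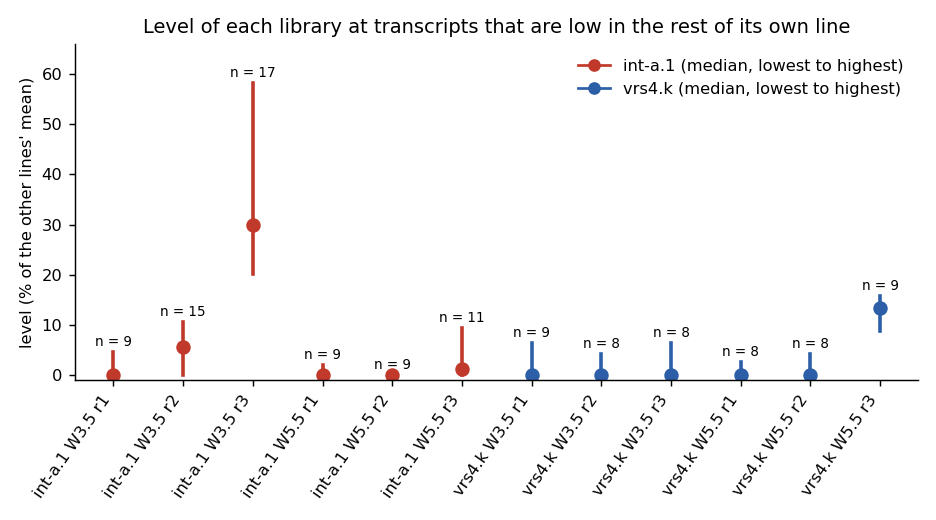
Level of each of the 12 libraries at transcripts that are low in the other libraries of its line, as a percentage of the mean of the other lines (y axis), with the median as a point, the lowest and highest transcript as a line and the number of transcripts above. int-a.1 W3.5 replicate 3 has a median of 29.9%, and among vrs4.k libraries W5.5 replicate 3 has 13.3%.

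Over both stages 206 transcripts differed between int-a.1 and vrs4.k (0.683% of those tested; limma, Benjamini-Hochberg adjusted p below 0.05, with stage as a blocking factor). Of these, 78 were higher in int-a.1 (0.259%) and 128 were lower (0.424%). Fold changes are int-a.1 over vrs4.k of TPM + 1, in log2; the added 1 shrinks the fold of scarce transcripts. In 162 of the 206 the log2 fold was at least 1 in size. The 6 int-a.1 and 6 vrs4.k libraries did not overlap at 189 of the 206, against 264 of all 30174 (0.875%). Most of the called transcripts were weak models: 164 are low-confidence gene models, a class that makes up 79.6% of calls but 52.5% of what was tested. An Arabidopsis or rice match that names a protein family or function was given for 73 of the 206 (35.4%), against 54.6% of all transcripts. Without int-a.1 W3.5 replicate 3 there were 187 calls (64 higher, 123 lower), of which 175 were among the 206. Without replicate 1 of int-a.1 at both stages there were 297 (136 higher, 161 lower), of which 179 were among the 206. Without vrs4.k W5.5 replicate 3 there were 182 (71 higher, 111 lower), and without vrs4.k W3.5 replicate 3 and W5.5 replicate 1 there were 158 (45 higher, 113 lower), of which 153 were among the 206. In whole apices, fewer cells of a type and less RNA per cell cannot be told apart. Near-identical copies can share reads, and several low-confidence models can be pieces of 1 gene, so calls are not independent of each other.

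By chromosome, 27 of 2054 transcripts on chromosome 1 (1.31%) and 23 of 2452 on chromosome 3 (0.938%) were called, against 32 of 12743 (0.251%) on chromosomes 2 and 4 to 7 together. On those 5 chromosomes the share ran between 0.175% on chromosome 4 and 0.359% on chromosome 2. Among the 12925 transcripts without a chromosome, 124 were called (0.959%), 50 higher and 74 lower in int-a.1. The median size of the log2 fold among calls was 2.64 on chromosome 1, 1.35 on chromosome 3, 1.55 on the other chromosomes and 1.62 where none is given. Without int-a.1 W3.5 replicate 3 the counts were 26 on chromosome 1, 19 on chromosome 3 and 27 on the other chromosomes. Without replicate 1 of int-a.1 at both stages they were 34, 22 and 63, and without the vrs4.k pair 22, 17 and 24.

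**Figure D2:**
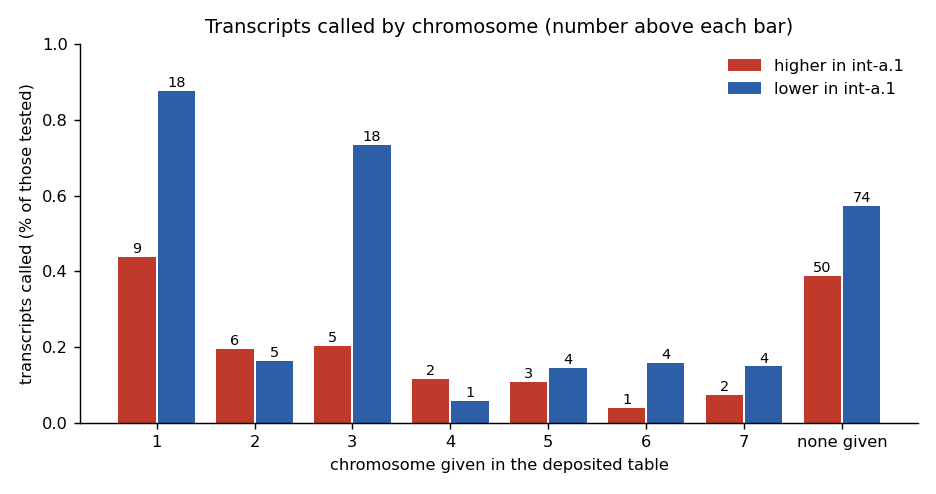
Transcripts called over both stages as a percentage of those tested (y axis) on each chromosome of the deposited table (x axis), higher in int-a.1 in red and lower in blue, with the number of transcripts above each bar. Chromosomes 1 and 3 hold 18 transcripts each that are lower in int-a.1, and chromosomes 2, 4, 5, 6 and 7 hold between 1 and 5 each.

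On chromosome 1 the int-a.1 libraries had much lower TPM for an endoglucanase, a pentatricopeptide repeat, an AAA ATPase and a glycine-rich transcript. TPM was higher for a ubiquitin-conjugating enzyme and an oxygenase transcript. In all, 9 were higher and 18 lower in int-a.1. Sequence differences between the lines were not examined, so whether TPM here follows the amount of RNA was not tested. The calls lay between positions 35.69 and 119.12, with a median of 47.66. The transcript that stands for INT-A, MLOC_69611.1, is at 47.52. Within 5 map units of it 16 of 815 transcripts were called (1.96%), from 5 to 10 units 6 of 243 (2.47%), from 10 to 20 units 4 of 181 (2.21%), and farther away 1 of 815 (0.123%).

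MLOC_24935.1 (position 48.23) matches GH9B8 of Arabidopsis, a family 9 endoglucanase, which cuts the glucan chains of the cell wall. It had 4.6, 6.7 and 26.4 TPM at W3.5 and 2.2, 0 and 2.7 TPM at W5.5 in int-a.1, against 84.0, 90 and 90.6 TPM at W3.5 and 97.6, 90 and 85.3 TPM at W5.5 in vrs4.k. All int-a.1 libraries were below all vrs4.k libraries, and the highest of them was W3.5 replicate 3. The log2 fold was -4.20 (SE 0.51, adjusted p = 0.00105). MLOC_1344.1 (46.6) matches pentatricopeptide repeat proteins, which bind RNA in mitochondria and plastids. It had 5.5, 12.8 and 38.1 TPM at W3.5 and 6.7, 4.4 and 5.9 TPM at W5.5 in int-a.1, against 87.6 to 115.9 TPM in the 6 vrs4.k libraries (log2 fold -3.39, SE 0.374, adjusted p = 0.000498). Here too the groups were separate and W3.5 replicate 3 was the highest of int-a.1. AK372801 (48.09), an AAA-type ATPase match, had 0 to 7.0 TPM in int-a.1, with a median of 0.4, and 19.2 to 34.7 TPM in vrs4.k (log2 fold -3.77). MLOC_7032.1 (54.53), a high-confidence model of a glycine-rich protein, had 0, 0.4 and 3.2 TPM at W3.5 and 0.1, 0 and 0.1 TPM at W5.5 in int-a.1, against 10.1 to 13.7 TPM in vrs4.k (log2 fold -3.14). Without int-a.1 W3.5 replicate 3 the log2 folds of these 4 transcripts were -4.63, -3.76, -4.16 and -3.46 in the order given. None of the other lines used here shared the low level: the endoglucanase was at 77.0 to 110.4 TPM in vrs1 and 70 to 104.7 TPM in int-c.5.

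Higher levels in int-a.1 on chromosome 1 were smaller in size where the match was informative. MLOC_5992.3 (41.64) matches UBC37, an enzyme that passes ubiquitin on to target proteins. It had 18.3, 14.8 and 14.3 TPM at W3.5 and 19.3, 17.4 and 17.1 TPM at W5.5 in int-a.1, against 9.2, 12.6 and 8.0 TPM and 9.4, 9.2 and 9.4 TPM in vrs4.k (log2 fold 0.75, SE 0.111, adjusted p = 0.00516). The groups did not overlap. Without vrs4.k W3.5 replicate 3 and W5.5 replicate 1 it was no longer called (0.69, adjusted p = 0.0557). AK370060 (48.09), matched to a 2-oxoglutarate and Fe(II)-dependent oxygenase in Arabidopsis and to a transposon protein in rice, had 23.1 to 28.2 TPM in int-a.1 and 16.1 to 19.9 TPM in vrs4.k (log2 fold 0.48, adjusted p = 0.0151). This call ended when replicate 2 of either line at W5.5, replicate 1 of vrs4.k at W3.5, or the vrs4.k pair was left out (0.44 to 0.52 over all alternatives). The smallest adjusted p of the whole comparison belonged to MLOC_19024.1 (35.69), a low-confidence model with no match that was picked out after its values were seen. It had 16.5 to 22.1 TPM in int-a.1 and 0 to 0.2 TPM in vrs4.k (log2 fold 4.35, adjusted p = 2.88e-10).

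**Figure D3:**
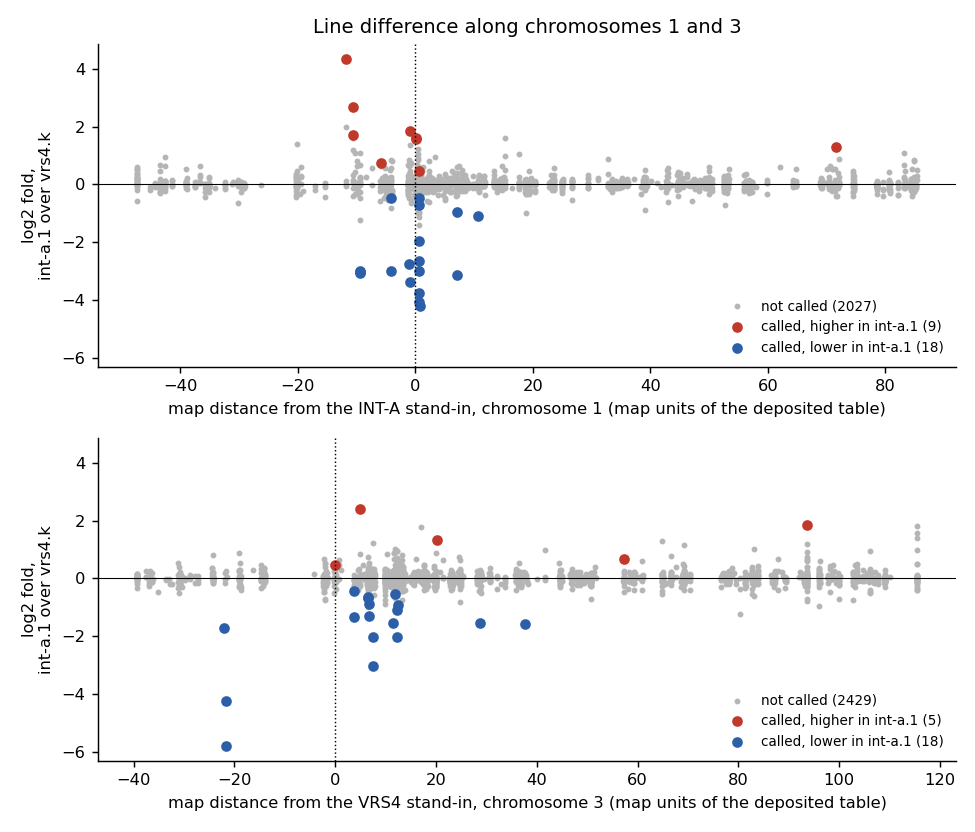
Log2 fold of each transcript, int-a.1 over vrs4.k (y axis), against its map distance from the INT-A stand-in on chromosome 1 (upper panel) and from the VRS4 stand-in on chromosome 3 (lower panel), with called transcripts in red (higher in int-a.1) or blue (lower) and the others in grey. On chromosome 1 all but 1 of the 27 called transcripts lie within 20 units of the stand-in, and on chromosome 3 15 of 23 do.

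On chromosome 3 a retrotransposon transcript, a metal transporter match and a BTB protein were lower in int-a.1, and a thaumatin and a glycosylation enzyme were higher; 5 transcripts were higher and 18 lower. Calls lay between positions 17.35 and 133.0 (median 46.88), and the transcript that stands for VRS4, AK373051, is at 39.38. Within 5 units of it 4 of 145 transcripts were called (2.76%), from 5 to 10 units 6 of 239 (2.51%), from 10 to 20 units 5 of 879 (0.569%) and farther away 8 of 1189 (0.673%).

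MLOC_74343.2 (46.88), a low-confidence model of a retrotransposon protein, had 0, 0 and 0.9 TPM at W3.5 and was listed at 0 in all 3 W5.5 libraries of int-a.1, against 6.3, 11 and 10.2 TPM at W3.5 and 5.8, 10.1 and 6.9 TPM at W5.5 in vrs4.k. The groups did not overlap, and the 0.9 TPM was in int-a.1 W3.5 replicate 3 (log2 fold -3.04, SE 0.19, adjusted p = 1.15e-05). It was listed at 0 in all 12 vrs1 and int-c.5 libraries. MLOC_15614.2 (46.03) matches IAR1, a ZIP-family metal transporter first described in Arabidopsis through its effect on the response to auxin conjugates. It had 0.9 to 1.8 TPM in int-a.1 and 2.9 to 5.9 TPM in vrs4.k (log2 fold -1.32, adjusted p = 0.000236). MLOC_37205.1 (45.82) matches POB1, a BTB-domain protein of the kind that brings targets to ubiquitin ligases, with 2.7 to 3.9 TPM in int-a.1 and 4.7 to 6.5 TPM in vrs4.k (log2 fold -0.69, adjusted p = 0.00433). MLOC_59302.1 (51.2), an exonuclease match, had 28.2 to 39.5 TPM in int-a.1 and 40 to 56.3 TPM in vrs4.k. Its adjusted p of 0.0497 (log2 fold -0.54) was at the threshold, and leaving out any 1 library ended the call, except replicate 1 of int-a.1 or replicate 3 of vrs4.k, both at W3.5.

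Among the transcripts that were higher in int-a.1, AK369434 (96.74) matches thaumatin proteins, which plants make in defence. It had 17.4, 16.0 and 16.5 TPM at W3.5 and 16.2, 15.2 and 14.8 TPM at W5.5 in int-a.1, against 9.0, 10.0 and 10.1 TPM and 8.1, 9.1 and 11.8 TPM in vrs4.k (log2 fold 0.68, SE 0.09, adjusted p = 0.00216). The vrs4.k libraries were all below the 14.0 to 18.2 TPM of vrs1 and the 14.41 to 18.42 TPM of int-c.5, whose ranges the int-a.1 libraries shared. AK357614 matches ALG3, a mannosyltransferase that builds the sugar chains added to secreted proteins, and has the same map position as the VRS4 stand-in, 39.38. It had 16.8 to 18.8 TPM in int-a.1 and 11.4 to 14.8 TPM in vrs4.k (log2 fold 0.45, adjusted p = 0.0151). That call was lost without int-a.1 W5.5 replicate 3, without vrs4.k W5.5 replicate 2 and without either pair that stood apart (0.39 to 0.48 over all alternatives). The log2 fold farthest from 0 on this chromosome was that of MLOC_1329.1 (17.67), a low-confidence model with no match, picked out after its values were seen. It averaged 5.17 TPM in int-a.1 and 101 TPM in vrs4.k (log2 fold -5.81, adjusted p = 0.0018), with 31.0 TPM in int-a.1 W3.5 replicate 3 and the other 5 int-a.1 libraries listed at 0.

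Chromosomes 2 and 4 to 7 held 14 transcripts that were higher and 18 that were lower in int-a.1. The lowest folds with an informative match were those of a pentatricopeptide repeat protein, a methyltransferase, a peroxidase and an ankyrin repeat protein. MLOC_29733.1 (chromosome 5, 130.14), another pentatricopeptide match, had 0.3 to 6.9 TPM in int-a.1 and 20.9 to 26.5 TPM in vrs4.k (log2 fold -3.28, adjusted p = 0.000305). MLOC_80119.1 (chromosome 7, 76.49) matches PMEAMT, a methyltransferase that depends on S-adenosylmethionine. It had 2.5 TPM in int-a.1 W3.5 replicate 3 and was listed at 0 in the other 5 int-a.1 libraries, against 8.3 to 14.3 TPM in vrs4.k (log2 fold -3.16, adjusted p = 0.000134). MLOC_37675.1 (chromosome 2, 58.78), a peroxidase match, had 0 to 1.6 TPM in int-a.1 and 4.8 to 7.4 TPM in vrs4.k (log2 fold -2.48). MLOC_62634.1 (chromosome 6, 60.55), an ankyrin repeat protein, had 0 to 0.5 TPM in int-a.1 and 2.0 to 3.1 TPM in vrs4.k (log2 fold -1.63). In each of these 4 transcripts the groups were separate and the highest int-a.1 library was W3.5 replicate 3. The PMEAMT match was absent or low in vrs1 (0 to 1.2 TPM) and listed at 0 in int-c.5, so there vrs4.k was the line that differed, whereas the other 3 were in vrs1 and int-c.5 at levels that overlapped those of vrs4.k.

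Of the transcripts that were higher in int-a.1 outside chromosomes 1 and 3, a pair had matches to RPP13, an NB-ARC immune receptor that recognises downy mildew in Arabidopsis. MLOC_64709.2 (chromosome 5, 166.32) had 5.6, 3.4 and 3.2 TPM at W3.5 and 6.7, 5.5 and 6.2 TPM at W5.5 in int-a.1, against 0.1 to 0.6 TPM in vrs4.k (log2 fold 2.22, SE 0.148, adjusted p = 1.87e-05). MLOC_4344.2 (chromosome 7, 1.91) had 9.9 to 17 TPM in int-a.1 and 2.7 to 5.3 TPM in vrs4.k (log2 fold 1.59, adjusted p = 0.000108). For both, vrs1 and int-c.5 lay at the int-a.1 level, with MLOC_64709.2 at 3.3 to 5.9 TPM in vrs1 and 3.72 to 5.871 TPM in int-c.5. MLOC_25806.1 (chromosome 7, 13.88), matched to a protein kinase in Arabidopsis and to an ELMO-domain protein in rice, had 3.4, 43.7 and 39.8 TPM at W3.5 and 6.6, 55.4 and 73.9 TPM at W5.5 in int-a.1, against 0 to 2.1 TPM in vrs4.k (log2 fold 3.74, SE 0.698, adjusted p = 0.0319). Replicate 1 was low at both stages, and without these 2 libraries the log2 fold was 4.80 (adjusted p = 0.000233), while leaving out int-a.1 W3.5 replicate 3 ended the call (3.55, adjusted p = 0.0898). Leaving out any other int-a.1 library numbered 2 or 3, or any 1 vrs4.k library, also ended it. The fourth, MLOC_77822.1, belongs to the histidine kinases described further on.

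The 124 calls with no chromosome included transcripts as far apart between the lines as those on chromosome 1. MLOC_31837.1, an ankyrin repeat match, had 0, 3.3 and 6.4 TPM at W3.5 and 0.6, 0.6 and 3.1 TPM at W5.5 in int-a.1, against 29.6 to 48 TPM in vrs4.k (log2 fold -4.06, SE 0.434, adjusted p = 0.000381). MLOC_49341.1 carries the same glycine-rich match as MLOC_7032.1 on chromosome 1, with 0 to 13.2 TPM in int-a.1 and 27.9 to 39.3 TPM in vrs4.k (log2 fold -4.03). MLOC_28688.1, a signal peptide peptidase match, had 0 to 3.3 TPM in int-a.1 and 13.1 to 30.8 TPM in vrs4.k (log2 fold -3.65). MLOC_49333.1, a match to GTPases that modify transfer RNA, had 0 to 3.3 TPM in int-a.1 and 8.2 to 13.3 TPM in vrs4.k (log2 fold -3.03). W3.5 replicate 3 was again the highest int-a.1 library in all 4.

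Higher in int-a.1 with no chromosome were a calcium-dependent kinase, a WD40 protein, an elongation factor and an auxin response factor. MLOC_46540.1 matches CPK13, a member of the family named calcium-dependent protein kinases. It had 64.3, 52.7 and 36.8 TPM at W3.5 and 49.1, 43.6 and 47.2 TPM at W5.5 in int-a.1, against 7.7 to 14.3 TPM in vrs4.k (log2 fold 2.25, SE 0.162, adjusted p = 3.6e-05). vrs1 (38.7 to 48.8 TPM) and int-c.5 (38.95 to 56.12 TPM) were also above vrs4.k. MLOC_82101.1, a WD40 repeat protein, had 18.9, 30.4 and 25.0 TPM at W3.5 and 16.7, 32.6 and 29.9 TPM at W5.5 in int-a.1, against 2.8 to 4.8 TPM in vrs4.k (log2 fold 2.35). For this one vrs1 and int-c.5 were low as well, at 3.2 to 5.5 and 3.958 to 5.928 TPM. MLOC_4488.1 matches elongation factor Tu, which brings aminoacyl transfer RNA to the ribosome. It had 2.0, 25.3 and 14.0 TPM at W3.5 and 2.1, 26.3 and 23.3 TPM at W5.5 in int-a.1, against 0 to 0.7 TPM in vrs4.k (log2 fold 3.17, adjusted p = 0.0361), with replicate 1 low at both stages. Without those 2 libraries its log2 fold was 4.13 (adjusted p = 3.84e-05); leaving out int-a.1 W3.5 replicate 3 ended the call (3.09, adjusted p = 0.0961), as did each other int-a.1 library numbered 2 or 3 and each vrs4.k library.

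**Figure D4:**
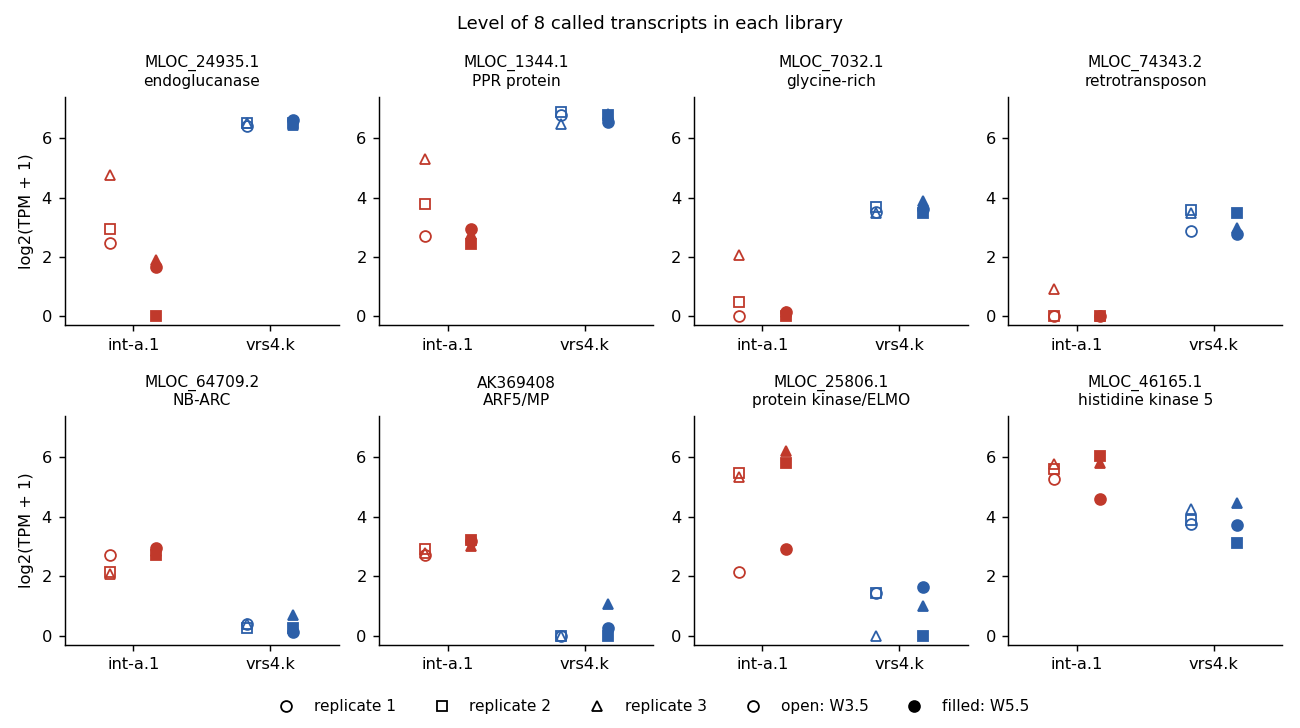
Level of 8 called transcripts as log2(TPM + 1) (y axis) in the 6 int-a.1 libraries (left, red) and the 6 vrs4.k libraries (right, blue), with open symbols for W3.5, filled symbols for W5.5 and a symbol shape for each replicate number. In the upper row int-a.1 W3.5 replicate 3 (open triangle) is the highest int-a.1 library, and for MLOC_25806.1 replicate 1 of both stages (circles) is lowest, at 3.4 and 6.6 TPM.

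Histidine kinase 5 of Arabidopsis is an intracellular hybrid histidine kinase of the signalling system that also carries cytokinin signals, but it lacks the domain with which the receptors bind cytokinin. The table holds 14 transcripts with this match, and 7 of them were called, all higher in int-a.1 (50%, against 0.683% of all transcripts). The log2 fold was above 0 for all 14, with a median of 1.293 against 0.005 over all transcripts. These transcripts resemble each other and can share reads, so they are not 14 separate observations. MLOC_46165.1 had 37.8, 48.1 and 53.4 TPM at W3.5 and 23.0, 65.1 and 55.5 TPM at W5.5 in int-a.1, against 12.4, 13.8 and 18.3 TPM and 12.1, 7.7 and 20.9 TPM in vrs4.k (log2 fold 1.65, SE 0.27, adjusted p = 0.0121). The groups were separate, and the int-a.1 library nearest to vrs4.k was W5.5 replicate 1. MLOC_52969.1 had 2.9 to 8.7 TPM in int-a.1 and 0.9 to 2.4 TPM in vrs4.k (log2 fold 1.23, adjusted p = 0.0204), and MLOC_77822.1 (chromosome 2, 112.32) had 4.8 to 13.8 TPM in int-a.1 and 1.2 to 3.9 TPM in vrs4.k (log2 fold 1.32, adjusted p = 0.0333). MLOC_46165.1 was at 6.8 to 22.0 TPM in vrs1, which overlaps vrs4.k, and at 68.83 to 98.74 TPM in int-c.5, above every int-a.1 library. The number called was not stable, at 2 of 14 without int-a.1 W3.5 replicate 3 (median log2 fold 1.26), 10 without replicate 1 of int-a.1 at both stages (1.54), 0 without vrs4.k W3.5 replicate 3 and W5.5 replicate 1 (1.35), and between 1 and 9 when 1 library at a time was left out.

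**Figure D5:**
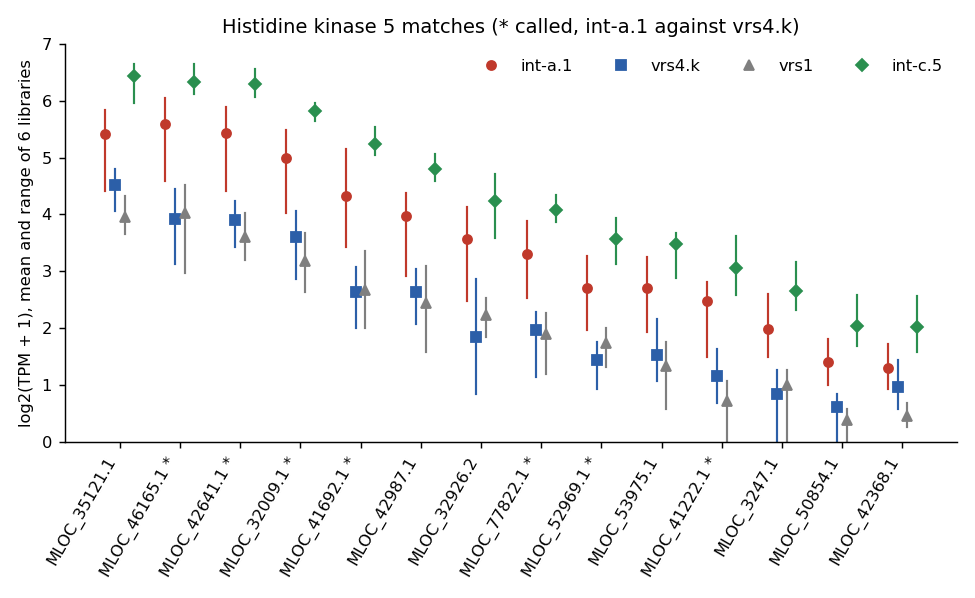
Mean and range over 6 libraries, as log2(TPM + 1) (y axis), of the 14 histidine kinase 5 matches (x axis, with an asterisk where int-a.1 against vrs4.k was called) for the lines int-a.1 and vrs4.k, then vrs1 and int-c.5. In all 14 the int-a.1 mean lies above the vrs4.k mean and below the int-c.5 mean.

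The wider cytokinin list, chosen by key words, held 70 transcripts, of which 8 were called (11.4%, against 0.683% of all transcripts). All 8 were higher in int-a.1, and 7 of them are histidine kinase 5 matches. Without those matches 1 of 56 was called (1.79%). That transcript, MLOC_49082.1 (chromosome 3, 59.53), matches a histidine kinase in rice and a calmodulin-binding protein in Arabidopsis. It had 6.1, 10.4 and 8.4 TPM at W3.5 and 4.9, 11.1 and 10.5 TPM at W5.5 in int-a.1, against 1.1 to 4.0 TPM in vrs4.k (log2 fold 1.32, adjusted p = 0.0222), and 13.63 to 19.0 TPM in int-c.5. It did not pass without int-a.1 W3.5 replicate 3 (1.33, adjusted p = 0.0568). The same held without replicate 2 of int-a.1 at either stage, int-a.1 W5.5 replicate 3, replicate 1 of vrs4.k at either stage, vrs4.k W3.5 replicate 2, or the vrs4.k pair. Whether MLOC_49082.1 shares reads with the histidine kinase 5 matches was not tested.

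Of 109 auxin transcripts 2 were called (1.83%, against 0.683% of all transcripts), and both match ARF5 (MONOPTEROS), which in Arabidopsis turns on genes in response to auxin when flowers are initiated. AK369408 had 5.5, 6.6 and 5.9 TPM at W3.5 and 8.0, 8.2 and 7.0 TPM at W5.5 in int-a.1; in vrs4.k it was listed at 0 in all 3 W3.5 libraries and had 0.2, 0 and 1.1 TPM at W5.5 (log2 fold 2.74, SE 0.152, adjusted p = 7.84e-06). The 1.1 TPM was in vrs4.k W5.5 replicate 3. MLOC_24808.1 had 1.2 to 4.2 TPM in int-a.1 and 0 to 0.8 TPM in vrs4.k (log2 fold 1.59, adjusted p = 0.00624), a call that ended without the vrs4.k pair (1.47, adjusted p = 0.0816). Both were in vrs1 and int-c.5 at levels that overlapped those of int-a.1, such as 6.9 to 8.4 TPM in vrs1 and 6.0 to 11.42 TPM in int-c.5 for AK369408.

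The 4 transcripts that stand for row-type loci, whose identity was not tested, were not called (0 of 4). The LOB-domain transcript AK373051, standing for VRS4, had 4.9, 6.0 and 6.6 TPM at W3.5 and 3.0, 2.8 and 4.4 TPM at W5.5 in int-a.1, against 4.7, 2.3 and 3.7 TPM and 2.8, 3.1 and 3.3 TPM in vrs4.k (log2 fold 0.35, 95% interval 0.01 to 0.70, adjusted p = 0.867). MLOC_69611.1, the jumonji C transcript standing for INT-A, had 3.7 to 5.9 TPM in int-a.1 and 4.3 to 9.0 TPM in vrs4.k (log2 fold -0.36, interval -0.73 to 0, adjusted p = 0.893). With the stages pooled, the lines overlapped at both transcripts. At W3.5 alone every int-a.1 library was above every vrs4.k library at AK373051 (log2 fold 0.61, limma adjusted p = 0.634). At W5.5 its libraries overlapped (log2 fold 0.10), and those of MLOC_69611.1 overlapped at each stage. AB259783.1 (MLOC_4993.2), the HD-Zip homeobox transcript standing for VRS1, the main repressor of lateral spikelets, had 2.3, 1.9 and 0.3 TPM at W3.5 and 7.3, 2.4 and 5.6 TPM at W5.5 in int-a.1, against 0, 1.1 and 0.1 TPM and 0.3, 0.6 and 1.4 TPM in vrs4.k. The ranges overlapped through int-a.1 W3.5 replicate 3 (log2 fold 1.28, interval 0.55 to 2.00, adjusted p = 0.218), and without that library the difference passed (1.51, adjusted p = 0.0431). It did not pass without replicate 1 of int-a.1 at both stages (1.01, adjusted p = 0.391), nor under any other alternative tried. MLOC_70116.1, the TCP transcript standing for INT-C, a brake on branching, had 0.7 to 2.4 TPM in int-a.1 and 0.7 to 2.2 TPM in vrs4.k (log2 fold 0.02, interval -0.33 to 0.37).

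Other gene lists, all chosen by key words, held few or no calls. No member was called among 36 MADS-box, 124 homeobox, 74 jumonji and SET chromatin, 149 histone, 67 AP2/ERF, 6 YABBY, 8 LOB-domain and 33 row-type factor transcripts (0 in each list). The same held for 249 cell cycle, 313 ribosomal protein, 74 photosynthesis, 47 lipid transfer, 54 gibberellin, 28 jasmonate, 45 trehalose and sucrose, 33 flowering time, 218 heat shock and 277 receptor-like kinase transcripts. MADS-box factors, which specify floral organs, had a median log2 fold of -0.259 with 6 of 36 above 0, and lipid transfer proteins had a median of 0.227 with 37 of 47 above 0, beside 0.005 over all transcripts. Floral MADS transcripts summed to 1210 TPM in vrs4.k W3.5 replicate 2, against 578 and 395 TPM in the other vrs4.k W3.5 libraries, and without that library the MADS-box median was -0.077 with 13 of 36 above 0. The lipid transfer median was 0.637 without replicate 1 of int-a.1 at both stages and 0.146 without vrs4.k W3.5 replicate 2. Pentatricopeptide repeat proteins had 6 of 209 called (2.87%, against 0.683% of all transcripts), 1 higher and 5 lower in int-a.1. MLOC_29481.1 was the largest of those not yet described, with 2.5 to 12.4 TPM in int-a.1 and 29.7 to 40.6 TPM in vrs4.k (log2 fold -2.62), and MLOC_50946.1, the one that was higher, had 5.8 to 11.2 TPM in int-a.1 and 2.2 to 4.2 TPM in vrs4.k (log2 fold 1.12). Transposon proteins had 7 of 1262 called (0.555%), 2 higher and 5 lower, a share near the 0.683% of all transcripts. AK353908, of the CACTA class, had 0 to 1.7 TPM in int-a.1 and 6.3 to 11.6 TPM in vrs4.k (log2 fold -2.83, adjusted p = 5.4e-05). The remaining calls in lists were 1 of 212 cell wall transcripts (0.472%, the endoglucanase), 2 of 159 NB-ARC receptors (1.26%, the RPP13 matches) and 1 of 617 F-box and ubiquitin transcripts (0.162%, the UBC37 match).

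The stages were also tested apart. At W3.5 107 transcripts were called (0.355%), 43 higher (0.143%) and 64 lower (0.212%) in int-a.1, and at W5.5 137 (0.454%), 48 higher (0.159%) and 89 lower (0.295%). All 206 transcripts called over both stages had the same sign at W3.5 and W5.5, which share no library, a direction that a call over both stages favours; 90 were called at each stage alone and 69 at neither. limma called no line-by-stage interaction (0 transcripts, 0%, smallest adjusted p 0.414, with 1418 at an unadjusted p below 0.05). The split at W3.5 turned to 103 higher and 64 lower without int-a.1 W3.5 replicate 1, to 133 and 71 without replicate 1 of int-a.1 at both stages, and to 17 and 17 without the vrs4.k pair. At W5.5 it was 97 and 96 without replicate 1 of int-a.1 at both stages. The count at W3.5 depended on single libraries, at 115 without int-a.1 replicate 3, 167 without int-a.1 replicate 1 and 37 to 60 without int-a.1 replicate 2 or any 1 vrs4.k replicate of that stage. At W5.5 it was 138 without int-a.1 W3.5 replicate 3 and 88 without int-a.1 or vrs4.k replicate 2.

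The levels in vrs1 and int-c.5 describe on which side a difference lay. The 6 int-a.1 libraries lay wholly outside the range of the 12 vrs1 and int-c.5 libraries at 84 of the 206 called transcripts (12 higher, 72 lower), while vrs4.k overlapped it. The reverse held at 68, with vrs4.k below that range at 36 and above it at 32. At 54 neither line lay outside, and at 0 did both. Over all transcripts int-a.1 alone was outside at 99 (0.328%) and vrs4.k alone at 95 (0.315%). On chromosome 1 the line outside was int-a.1 at 20 of 27 called transcripts and vrs4.k at 1. On chromosome 3 it was int-a.1 at 3 of 23 and vrs4.k at 14. Chromosomes 2 and 4 to 7 had 11 with int-a.1 outside and 12 with vrs4.k outside of 32, and the transcripts with no chromosome 50 and 41 of 124. Over all transcripts of a place, called or not, int-a.1 alone was outside at 1.17% on chromosome 1 and 0.122% on chromosome 3. For vrs4.k alone these shares were 0.0974% and 0.816%. On the other chromosomes they were 0.11% for int-a.1 and 0.173% for vrs4.k, and with no chromosome 0.449% and 0.395%. Without int-a.1 W3.5 replicate 3 and vrs1 W3.5 replicate 1, which also held 5.76% of the vrs4.k level at 8 transcripts high in vrs4.k alone, the counts over all called transcripts were 88 and 69. A called transcript had to differ between the lines, so these counts carry no test. The values of int-c.5 W3.5 replicate 1 are whole numbers, so at low levels rounding can move an end of the range. No count leaves that library out.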

How the data were processed

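RNA sequencing libraries of main shoot apices were prepared with standard Illumina protocols, per the labels' protocols, with days of 16 h at 22 °C, nights of 8 h at 18 °C and harvest 6 to 8 h before lights went off. The authors deposited 1 table of 30174 transcripts. Per the file headers these are raw counts, yet most values have decimals and add up to between 980900 and 987700 per library, so they were treated as TPM; 1 deposited int-c.5 column, TPM rounded to whole numbers, was recorded as a score. BWA, Salmon, limma and GATK are named in the submitters' processing notes without versions or roles, and no source used here names a genome build. Labels call the later stage W5.5 and the deposited headers W5.0. Columns name a line, a stage and a replicate number but no sample, so each was assigned to its group, with 0 columns unassigned. No identifier matched the reference gene table used here (0), so gene names are the table's own Arabidopsis and rice matches and no sequence is shown.

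limma 3.58.1 (R 4.3.3) was run on log2(TPM + 1) of the 12 libraries, with stage and line for both stages and with 4 line-by-stage groups for single stages and the interaction, and p-values were adjusted over all transcripts by Benjamini and Hochberg. The code was tested on simulated data. No filter on low values was used. A library's share of another line's level was measured at transcripts of at least 3 TPM in every library of the marked line, or of the lines that have the transcript, and at most 0.5 TPM in 90% of the rest (75% in the rest of its own line). Up to 4 highest and 4 lowest called transcripts with separate groups and an informative match are named in each of 4 places (chromosome 1, chromosome 3, the other chromosomes, none given), with the 4 stand-ins and up to 2 called members of each of 25 key-word lists, 39 in all. Root transporter key words found no transporter, and the anther list held 1 transcript. Alternatives were the pseudocount, a filter, scaling, a variance trend, library weights, 24 libraries, a first principal component and libraries left out. The lines, lists and named transcripts were chosen with earlier results of these data known; the checks of libraries, and the fits without replicate 1 of int-a.1 or the vrs4.k pair, were added after the values were seen. Over all pairs, within and between lines, correlations of same-numbered libraries lay within the range of differently numbered ones. The main fits used no pairing by number.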

Additional observations from a re-analysis of the deposited data

How the results depend on the processing

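Of 35 named called transcripts, 20 stayed called under all 26 alternatives, 15 were lost under at least 1, and 0 turned round; 30 kept their call without int-a.1 W3.5 replicate 3 34 without replicate 1 of int-a.1 at both stages and 24 without vrs4.k W3.5 replicate 3 and W5.5 replicate 1. TPM keeps no depth, so low transcripts cannot be given counting intervals. Leaving out 1 library at a time gave 166 to 231 calls over both stages, 37 to 167 at W3.5, 88 to 145 at W5.5 and 0 to 1 interactions; by place it gave 24 to 29 on chromosome 1, 15 to 22 on chromosome 3, 22 to 43 on the other chromosomes and 99 to 137 with none given. The count on chromosome 3 was 15 without int-a.1 W5.5 replicate 3. With a pseudocount of 0.1 there were 43 calls at W3.5 and 1 interaction. A pseudocount of 0.01 gave 132 calls over both stages (15, 16, 19 and 82 by place), 31 at W3.5, 54 at W5.5 and 2 interactions. Library weights, which ran between 0.262 and 8.89 in the fit of 4 groups and were highest for int-a.1 W3.5 replicate 3, gave 374 over both stages (36, 37, 84 and 217), 8791 at W3.5, 330 at W5.5 and 855 interactions. With 24 libraries there were 317 over both stages, 57 on the other chromosomes and 192 with none given, and 159 at W3.5. An adjusted p below 0.01 left 148 over both stages, 32 at W3.5, 85 at W5.5, 15 on chromosome 3 and 18 on the other chromosomes. The first principal component as a covariate gave 165 at W3.5, 35 on chromosome 3 and 62 on the other chromosomes. Without int-a.1 W3.5 replicate 1 and vrs4.k W3.5 replicate 2 there were 200 over both stages, 55 at W3.5 and 5 interactions. On the first principal component of the 12 libraries, the former was at -18.48, with int-a.1 W3.5 replicates 2 and 3 at 67.47 and 42.81. The latter was at -52.76, with vrs4.k W3.5 replicates 1 and 3 at -5.61 and 31.44. Without replicate 1 of int-a.1 at both stages there were 204 at W3.5, 193 at W5.5 and 63 on the other chromosomes. Without vrs4.k W3.5 replicate 3 and W5.5 replicate 1 there were 34 at W3.5 and 75 at W5.5. Calls at W3.5 were more often higher than lower in int-a.1, unlike the 43 and 64 of all 12 libraries, with pseudocounts of 0.1 (27 and 16) and 0.01 (22 and 9), at an adjusted p below 0.01 (20 and 12), with the first principal component (90 and 75), without int-a.1 W3.5 replicate 1 and vrs4.k W3.5 replicate 2 (41 and 14), and without int-a.1 W3.5 replicate 2 (23 and 18), vrs4.k W3.5 replicate 1 (24 and 18) or replicate 2 (22 and 15). The cause of these shifts was not tested. Deviations of same-numbered libraries correlated at -0.331 to 0.282 over 18 pairs, within the -0.473 to 0.444 of differently numbered ones. Between the stages of int-a.1, same-numbered pairs had 0.095, 0.135 and 0.017, and differently numbered ones -0.134 to 0.031. Between the stages of vrs4.k these were -0.038, 0.282 and -0.011, against -0.28 to 0.256. Replicate 1 of int-a.1 at both stages nevertheless shared 64 low and 20 high transcripts. With the numbers as a replicate block there were 197 calls over both stages, 72 at W3.5, 125 at W5.5 and 0 interactions. Of the named calls, those of MLOC_59302.1 and AK357614 were lost under this block.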

Other observations

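The transcripts that set replicate 1 of int-a.1 apart at both stages include several that vrs4.k shares with the other 4 int-a.1 libraries. MLOC_1886.3 (chromosome 1, 48.09), matched to an ADP-ribosylation factor GTPase activator, which helps control vesicle traffic, had 0 and 0.8 TPM in replicate 1 at W3.5 and W5.5, 19.1 to 22.0 TPM in the other 4 int-a.1 libraries and 18.3 to 28.6 TPM in vrs4.k. MLOC_4500.2, an NB-ARC immune receptor match at the same position, had 0.2 and 0.5 TPM in replicate 1, 8.0 to 13.9 TPM in the other 4 and 6.3 to 10.3 TPM in vrs4.k. At 31 of the 64 transcripts low in replicate 1 all vrs4.k libraries were above both replicate 1 libraries, and at 35 the other 4 int-a.1 libraries were above all vrs4.k libraries. One of these is AK250623.1 (chromosome 1, 35.69), a defensin match, which had 76.7 and 108.1 TPM in replicate 1, 562.1 to 864.5 TPM in the other 4 and 57.2 to 125.2 TPM in vrs4.k. At MLOC_6302.2 (chromosome 1, 46.6), a model with no match, the order was turned round, with 222.0 and 266.9 TPM in replicate 1, 2.7 to 4.8 TPM in the other 4 and 3.1 to 7.6 TPM in vrs4.k. Of the 64 low transcripts 11 lie on chromosome 1 and 3 were among the 206 called; of the 20 high ones 3 lie on chromosome 1 and 0 were called. The cause was not tested. These transcripts were picked out after their values were seen.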
